A study of Mus musculus with 6 samples.

Results

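The genes described here encode 9 proteins of the complement system or its control: C3, C4b, Cfb, Serping1, C1ra, C1s1, Cfd, Cfp and C3ar1. They were chosen by gene symbol from UMI counts of 31130 genes in 6 mouse lung tumors, and 8 of the 9 had a row and were tested, while Cfb, factor B, was not analysed here. The tumors formed 2 groups of 3, named LC and IP + LC. RNA was taken from whole tumor tissue. All mice were female wild-type C57BL/6 mice of 6 to 8 weeks, and all received EGFP-expressing LLC cells, the Lewis lung carcinoma line of mouse origin, by injection into the left lung on day 14, with tissue taken on day 21. In the IP + LC group, interstitial pneumonia had been induced with bleomycin, an antitumor antibiotic known for its lung toxicity, at 2.0 mg/kg body weight by oropharyngeal aspiration, 2 weeks before the cells. Whether the LC mice received a vehicle is not given in the sources used here, and so bleomycin cannot be told apart from the aspiration itself. The labels call the cell type lung cancer cells, but the lung epithelial genes Sftpc and Scgb1a1 were abundant in every library, so that the tissue also held host lung. In such bulk tissue, fewer cells of a type and less RNA per cell cannot be told apart. The labels do not say that the replicates are separate mice, and p-values therefore measure the spread between these samples.

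The libraries held 592733 to 1631066 UMIs. The smallest was LC replicate 1, which stood apart from its own group. Its correlation with LC replicates 2 and 3 was 0.840 and 0.799 across the log2 levels of genes (which are not independent), against 0.962 between those 2 and 0.968 to 0.973 among the IP + LC tumors. With the IP + LC tumors, LC replicate 1 correlated at 0.796 to 0.822. The spread between replicates was 33.2% in the LC group, 13.7% in it without replicate 1 and 10.9% in the IP + LC group. The fold change of each member is therefore also given without that tumor. UMIs count molecules, and a count of 3 UMIs, which is taken as the limit of detection, corresponds to 1.75 to 5.17 CPM in these libraries, where CPM is the UMI count of a gene relative to the library's UMIs on tested genes after TMM scaling, brought to a common total. This limit concerns detection only, and it covers neither the counting error of levels above it nor the spread between tumors.

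Complement is a chain of plasma proteases and their substrates that marks surfaces for uptake, attracts leukocytes and can open pores in membranes. In the classical pathway, C1q binds a surface and activates C1r and C1s, which cleave C4 and C2. In the alternative pathway, factor D cleaves factor B that is bound to C3b, and properdin stabilises the resulting C3 convertase. Both routes cleave C3, and its small fragment C3a acts on the receptor C3aR1 of myeloid cells. C1 inhibitor, the product of Serping1, binds and inactivates C1r and C1s. The liver is the main source of most plasma complement proteins, while macrophages, fibroblasts, epithelial cells and, for factor D, adipocytes also make components locally.

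In the IP + LC tumors, the mRNA of the C3a receptor was higher and that of factor D, C1 inhibitor and C4 was lower than in the LC tumors. C3ar1 rose 3.14-fold, Cfd fell by 2.50 on the log2 scale (5.67-fold lower), Serping1 was 1.84-fold lower and C4b 1.58-fold lower. The classical proteases C1ra and C1s1, and C3 and Cfp, did not pass the limit. Of the 8 genes, 1 was higher, 3 were lower and 4 were not called at an adjusted p below 0.1 (edgeR's quasi-likelihood test, with p-values adjusted over all 11240 tested genes), where 36.4% of all tested genes were called, 16.8% higher and 19.6% lower. A share of 4 in 8 is thus to be read against a background in which more than 1 gene in 3 was called. The median log2 fold change of the 8 genes was −0.31 (−0.34 without LC replicate 1) and that of all tested genes 0.02. Without LC replicate 1, 2 were higher and 4 lower, where 57% of 11748 genes were called, 28.3% higher and 28.7% lower.

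The upstream sequences of C3, the protein on which the pathways converge, and of Cfd and C3ar1, the genes with the strongest fall and rise among the members, are shown first. They are the 150 bases before the RefSeq start on GRCm38.p6, 5′ to 3′ on the strand of the gene. They lie at chr17:57228137-57228286 (minus strand) for C3, chr10:79890703-79890852 (plus strand) for Cfd and chr6:122856158-122856307 (minus strand) for C3ar1, and the capitals mark a match to the C/EBP motif.
C3: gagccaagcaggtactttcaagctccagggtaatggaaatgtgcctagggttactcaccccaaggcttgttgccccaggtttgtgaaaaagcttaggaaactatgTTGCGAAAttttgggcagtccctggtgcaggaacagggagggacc
Cfd: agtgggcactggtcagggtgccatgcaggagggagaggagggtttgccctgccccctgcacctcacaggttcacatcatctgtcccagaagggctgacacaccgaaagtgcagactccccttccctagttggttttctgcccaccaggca
C3ar1: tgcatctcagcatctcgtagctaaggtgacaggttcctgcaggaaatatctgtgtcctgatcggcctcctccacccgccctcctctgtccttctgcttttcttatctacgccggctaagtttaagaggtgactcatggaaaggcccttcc

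Of the 8 genes, 6 matched a RefSeq promoter, and C4b and Serping1 did not. In the 250 bases before the start, 6 motifs were searched on both strands. The C/EBP motif TTGCNNAA, bound by transcription factors of the acute-phase response, was found before C3 (45 to 38 bases upstream) and before 1 of the 2 RefSeq starts of C1s1 (242 to 235 bases upstream), and in 9.56% of 32851 promoters. The TATA box TATAAA was found before C3ar1, 235 to 230 bases upstream and thus outside the printed stretch, and in 12.4% of promoters. The interferon-gamma activated site TTCNNNGAA, the core GAAANNGAAA of the interferon-stimulated element, the hypoxia response core ACGTG and the NF-kB site were found before 0 of the 6 genes, and in 7.02%, 2.98%, 16.6% and 7.25% of promoters. No matches overlapped each other. A match is a run of letters and not a bound site, and the absence of one concerns these 250 bases only.

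The classical proteases did not differ measurably between the groups. C1ra (ENSMUSG00000055172, chr6:124512405-124523443, plus strand) encodes the protease that activates C1s. Its level was 39.6, 69.7 and 56.8 CPM in LC replicates 1 to 3 and 37.7, 73.0 and 66.8 CPM in IP + LC replicates 1 to 3. Within each group the tumors differed more than the group means, 55.4 ± 15.1 and 59.2 ± 18.8 CPM (SD, n = 3), and the log2 fold change was 0.07 (95% interval −0.61 to 0.75, edgeR adjusted p = 0.892) and −0.08 without LC replicate 1. C1s1 (ENSMUSG00000038521, chr6:124530345-124542359, minus strand) encodes C1s, which cleaves C4 and C2, and its 3′ end faces that of C1ra at a gap of 6902 bp. It reached 98.2, 99.5 and 80.5 CPM in the LC tumors and 63.8, 94.0 and 103 CPM in the IP + LC tumors. The groups overlapped, and the log2 fold change was −0.09 (95% interval −0.62 to 0.44, edgeR adjusted p = 0.811) and −0.04 without LC replicate 1. Both genes have near-identical copies, C1rb for 81.5% of the longest C1ra transcript together with Gm18840, and C1s2 for 92.8% of that of C1s1 together with Gm16567, so that the assignment of reads among the copies is uncertain.

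C4b and C3 encode substrates of C1s and of the C3 convertases, in this order. Both were lower on average in the IP + LC tumors, but with different certainty. C4b (ENSMUSG00000073418, chr17:34728380-34743882, minus strand) encodes C4, whose fragment binds covalently to target surfaces. Its level was 102, 99.5 and 86.4 CPM in the LC tumors and 52.2, 71.2 and 57.4 CPM in the IP + LC tumors. All LC tumors lay above all IP + LC tumors, as was the case in this direction for 21.5% of tested genes (43.1% in either direction). The log2 fold change was −0.66 ± 0.21 (SE, edgeR adjusted p = 0.0417), and −0.61 without LC replicate 1 (adjusted p = 0.00966). C4b passed the limit in 13 of 18 fits, and it missed it without LC replicate 2 (−0.63, adjusted p = 0.134), IP + LC replicate 1 (−0.55, adjusted p = 0.185) or IP + LC replicate 3 (−0.60, adjusted p = 0.153). Of its longest transcript, 99.98% has a near-identical match in C4a, which had at most 1 UMI in any library, and the split of reads between both copies is uncertain. C3 (ENSMUSG00000024164, chr17:57203970-57228136, minus strand) was at 320.3, 593 and 476 CPM in the LC tumors and at 249, 303 and 405 CPM in the IP + LC tumors. The highest IP + LC tumor exceeded LC replicate 1, and the log2 fold change of −0.54 ± 0.28 (SE, 95% interval −1.17 to 0.09) did not pass (edgeR adjusted p = 0.183). Without LC replicate 1 the groups no longer overlapped, and C3 fell by 0.74 on the log2 scale (edgeR adjusted p = 0.00298). It was −0.33 without LC replicate 2 (adjusted p = 0.5004) and −0.37 without IP + LC replicate 1 (adjusted p = 0.476), and C3 passed in 2 of 18 fits.

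Of the alternative pathway genes, Cfd was lower and Cfp was not called. Cfd (ENSMUSG00000061780, chr10:79890853-79892655, plus strand) encodes factor D, also known as adipsin, the protease that cleaves factor B. Its level was 338, 475 and 422 CPM in the LC tumors and 97.2, 33.3 and 88.6 CPM in the IP + LC tumors. The lowest LC tumor was thus far above the highest IP + LC tumor, with means of 411 ± 69.2 and 73.0 ± 34.7 CPM (SD, n = 3). The log2 fold change was −2.50 ± 0.38 (SE, 95% interval −3.35 to −1.65, edgeR adjusted p = 0.00239) and −2.63 without LC replicate 1, and Cfd passed the limit in 18 of 18 fits. Cfp (ENSMUSG00000001128, chrX:20925454-20931555, minus strand) encodes properdin, the stabiliser of the alternative C3 convertase, which is made mostly by myeloid cells. Its level was 133, 72.9 and 43.2 CPM in the LC tumors and 189, 144 and 115 CPM in the IP + LC tumors. LC replicate 1 lay above IP + LC replicate 3, and the other LC tumors lay below all IP + LC tumors. The log2 fold change was 0.89 ± 0.38 (SE, 95% interval 0.04 to 1.74), which missed the limit over all genes (edgeR adjusted p = 0.110). It was 1.36 without LC replicate 1 (edgeR adjusted p = 0.000262), and Cfp passed in 7 of 18 fits. The other passing fits kept all 6 tumors and differed in scaling, filter or model, with adjusted p-values from 0.00175 (limma voom with sample quality weights) to 0.0768 (library size only).

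Serping1 (ENSMUSG00000023224, chr2:84765387-84775444, minus strand), which encodes C1 inhibitor, was below the LC range in all IP + LC tumors. Its level was 572, 634 and 624 CPM in the LC tumors and 244, 340.3 and 409 CPM in the IP + LC tumors. The LC tumors lay close together and the IP + LC tumors were spread, without overlap between the groups. The log2 fold change was −0.88 ± 0.23 (SE, edgeR adjusted p = 0.0226), and −0.91 without LC replicate 1 (edgeR adjusted p = 0.000453). Serping1 passed in 17 of 18 fits and missed the limit without IP + LC replicate 1, the tumor with its lowest level (−0.68, edgeR adjusted p = 0.106).

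C3ar1 (ENSMUSG00000040552, chr6:122847138-122856161, minus strand), the receptor of the C3 fragment C3a on macrophages and other myeloid cells, was the member that rose. Its level was 24.1, 32.1 and 17.8 CPM in the LC tumors and 64.5, 84.1 and 85.7 CPM in the IP + LC tumors. Every IP + LC tumor lay above every LC tumor, which held in this direction for 21.6% of tested genes. The counts behind these levels were 14 to 41 UMIs in the LC and 89 to 144 UMIs in the IP + LC libraries. The log2 fold change was 1.65 ± 0.26 (SE, 95% interval 1.05 to 2.25, edgeR adjusted p = 0.00312) and 1.64 without LC replicate 1, and C3ar1 passed in 18 of 18 fits.

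The plot of levels by tumor shows these values for the 8 genes, and the plot of fold changes shows how far each depends on LC replicate 1. In the second, the estimate for Cfp moves away from 0 by more than its standard error when that tumor is left out. That for C3 also moves away from 0, but by less than its error. Those for Cfd, Serping1, C4b and C3ar1 move little against their errors.

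**Figure D1:**
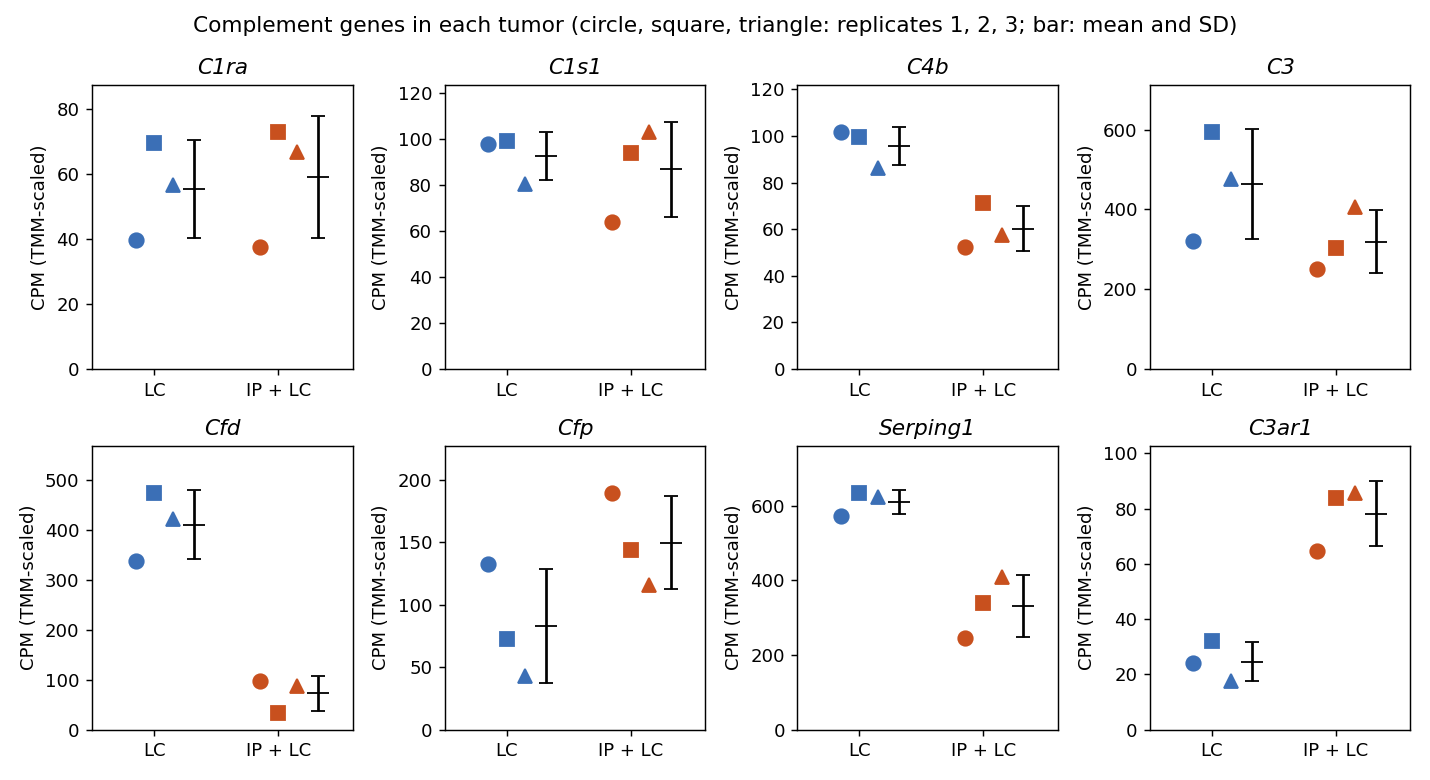
Level of each of the 8 genes (CPM after TMM scaling, linear axes from 0) in the LC and IP + LC tumors, with a circle, a square and a triangle for replicates 1, 2 and 3 and a bar for the mean and SD of 3 tumors. The groups do not overlap for C4b, Serping1, Cfd and C3ar1, and they overlap for C3, C1ra, C1s1 and Cfp.

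**Figure D2:**
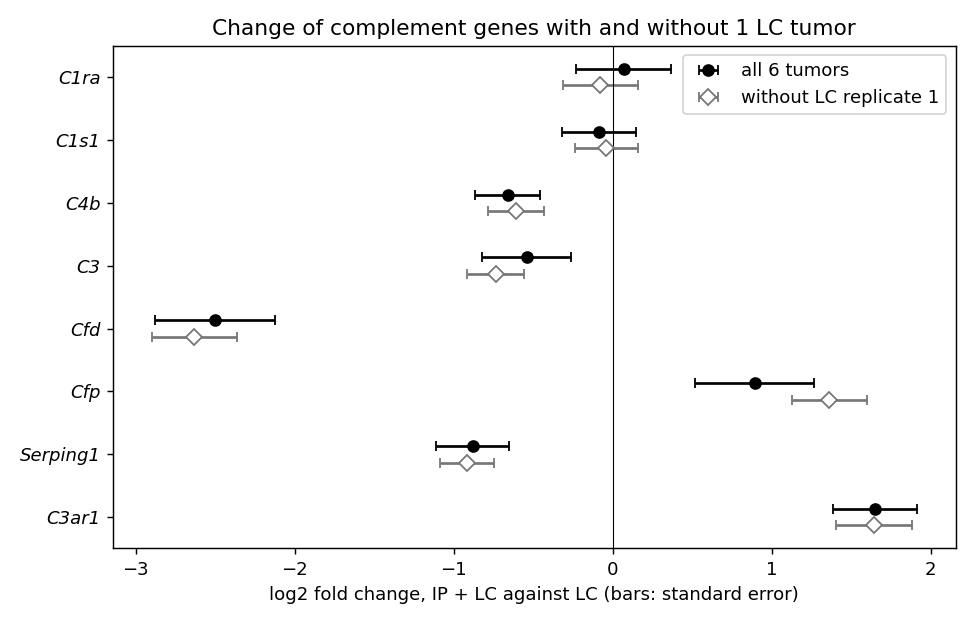
Log2 fold change of IP + LC against LC tumors (x axis, with standard errors) for the 8 genes, from all 6 tumors (filled circles) and without LC replicate 1 (open diamonds). C3 moves from −0.54 to −0.74 and Cfp from 0.89 to 1.36.

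Ratios of UMI counts within a tumor need no scaling between libraries. There were 4.13, 3.74 and 4.53 UMIs of Serping1 for each UMI of C1ra and C1s1 together, its target proteases, in the LC tumors, and 2.40, 2.04 and 2.40 in the IP + LC tumors. The ratios of the groups did not overlap. On the log2 scale they were 2.04 ± 0.14 and 1.19 ± 0.14 (SD, n = 3), a difference of −0.86, with and without LC replicate 1 (exact two-sided permutation test, p = 0.1, which is the smallest p that 3 tumors against 3 allow and not below 0.05). The ratio of C4b to C3 was 0.319, 0.168 and 0.182 in the LC tumors and 0.210, 0.236 and 0.142 in the IP + LC tumors. These overlapped, and the log2 difference of −0.16 (exact two-sided permutation test, p = 0.7) became 0.13 without LC replicate 1. A total of 2 ratios were compared, and adjustment over them cannot bring either p below 0.1.

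**Figure D3:**
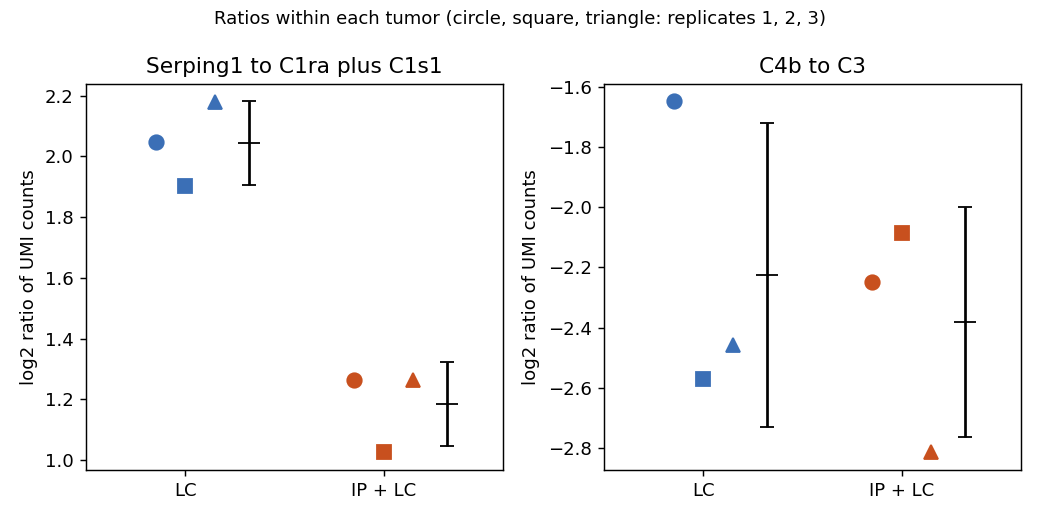
Log2 ratio of UMI counts within each tumor for Serping1 against C1ra plus C1s1 and for C4b against C3, with replicates 1, 2 and 3 as a circle, a square and a triangle and the mean and SD of 3 tumors as a bar. The first ratio is near 2.04 in the LC and 1.19 in the IP + LC tumors, and the second overlaps between the groups.

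A list of 53 other complement genes was examined in the same fit. Of these, 50 were in the tables, 25 were tested, 7 were higher, 9 were lower and 9 were not called, with a median log2 fold change of −0.20 (−0.29 without LC replicate 1). Of all tested genes, 16.8% were higher and 19.6% lower, with a median of 0.02. The 25 genes not tested had at most 17 UMIs in any library, among them the liver products C9, Cfi, C8a and Mbl2. Without LC replicate 1, 26 were tested, of which 11 were higher and 10 lower, where 28.3% and 28.7% of all genes were. By role, 5 of 8 recognition molecules and 2 of 6 receptors were higher, whereas 2 of 2 terminal components and 2 of 3 membrane regulators were lower. The other proteases and substrates, Masp1, C1rl and C2, were not called, with log2 fold changes of 0.64, −0.08 and −0.20. Of the exonic length of C2, 46.9% is overlapped by other genes, Gm20547 on the same strand among them, so that its count is uncertain.

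Among the recognition molecules, the chains of C1q, which starts the classical pathway and is made by macrophages, were high in all IP + LC tumors and in 1 LC tumor. C1qa was at 568, 157 and 110 CPM in the LC tumors and at 585, 791 and 733 CPM in the IP + LC tumors, with a log2 fold change of 1.36 (adjusted p = 0.0896) that was 2.40 without LC replicate 1. C1qc gave 1.28 (adjusted p = 0.0815), with 529 CPM in LC replicate 1 against 567 to 752 CPM in the IP + LC tumors, and 2.14 without that tumor. C1qb missed the limit at 1.12 (adjusted p = 0.154) and gave 2.14 without that tumor (adjusted p = 1.80e-06). LC replicate 1 was thus at about the IP + LC level for all C1q chains, while for C3ar1 it was between the other LC tumors. C1qa and C1qc also lost the call when any other single tumor was left out, with adjusted p-values of 0.146 to 0.265. Calr, the chaperone calreticulin that also binds C1q, was at 1305, 552 and 452 CPM in the LC tumors and at 1769, 1625 and 1574 CPM in the IP + LC tumors (1.11, adjusted p = 0.0564). Its log2 fold change was 1.73 without LC replicate 1, and it too lost the call without any single other tumor (0.121 to 0.191).

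Other molecules of this group moved in both directions. C1qbp, a mitochondrial protein that also binds C1q, rose by 0.96 on the log2 scale (adjusted p = 0.0342, 0.102 to 0.134 without LC replicate 2 or IP + LC replicate 1 or 2). Ptx3, a pentraxin that recruits C1q, had 1 to 3 UMIs in the LC and 16 to 22 UMIs in the IP + LC libraries and was at least 3.79-fold higher against the limit of 3 UMIs (adjusted p = 0.00476). Colec12, a scavenger receptor with a collectin domain, fell by 0.95 on the log2 scale (adjusted p = 0.0455, 0.104 to 0.201 without LC replicate 2 or 3 or IP + LC replicate 1 or 2). All p-values of the list come from the same edgeR fit as those of the members.

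The tested terminal components, Hc and C6, were lower, and 4 others of the 6 in the tables were too low to test. Hc, which encodes C5, the source of C5a and the start of the membrane attack complex, was at 279, 322 and 377 CPM in the LC tumors and at 82.7, 49.6 and 61.0 CPM in the IP + LC tumors. The groups lay far apart, and the log2 fold change was −2.34 ± 0.25 (SE, adjusted p = 0.000859), second only to Vtn in size among the genes of the list that fell. C6, the next component to join that complex, was at 32.7, 34.5 and 34.7 CPM in the LC tumors and at 10.9, 16.9 and 17.4 CPM in the IP + LC tumors (adjusted p = 0.0109).

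Regulators in plasma and on membranes fell as well. Vtn, which encodes vitronectin, a plasma protein that blocks the membrane attack complex, was at 23.4 ± 1.43 and 4.31 ± 1.30 CPM (adjusted p = 0.00149). Clu, which encodes clusterin, another plasma inhibitor of that complex, fell from 343 ± 8.86 to 202 ± 27.2 CPM (adjusted p = 0.0199, and 0.110 without IP + LC replicate 1). On membranes, Cd55, which speeds the decay of convertases, was at 98.2, 126 and 91.5 CPM in the LC tumors and at 37.0, 22.2 and 53.7 CPM in the IP + LC tumors (adjusted p = 0.00929). Cd59a, which blocks the last step of the attack complex, was at 8.61, 38.4 and 39.8 CPM in the LC tumors against 5.84 to 7.25 CPM in the IP + LC tumors (adjusted p = 0.00983), and LC replicate 1 was near the IP + LC level. Cr1l, a convertase regulator of mouse cells, was not called (−0.34 on the log2 scale, adjusted p = 0.237).

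Of the receptors, C5ar1, which binds C5a, was at 6.89, 46.2 and 38.1 CPM in the LC tumors and at 75.4, 82.9 and 82.8 CPM in the IP + LC tumors. All IP + LC tumors were above all LC tumors, and the log2 fold change was 1.29 (adjusted p = 0.0461, 0.113 to 0.140 without any single IP + LC tumor). Like C3ar1, C5ar1 was thus higher in the IP + LC tumors, while Hc, the gene of its ligand's precursor, was lower. Itgam, the alpha chain of complement receptor 3, rose by 1.24 on the log2 scale (adjusted p = 0.0111), although 68.7% of its exonic length overlaps Gm49368 on the same strand. Itgb2, its beta chain, missed the limit at 0.56 (adjusted p = 0.1005), and Itgax at 0.43 and Cr2 at −1.19 were not called either. These 3 genes passed without LC replicate 1, as did Masp1. Cd93, a surface protein of endothelial and myeloid cells once taken for a C1q receptor, fell by 1.03 on the log2 scale (adjusted p = 0.0647), although LC replicate 1, at 134 CPM, lay below every IP + LC tumor (139 to 160.5 CPM), against the direction of the call, and it lost the call without any single other tumor (0.158 to 0.227).

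Of the list's calls, 2 of the 7 increases (Ptx3 and Itgam) and 5 of the 9 decreases (Hc, C6, Vtn, Cd55 and Cd59a) held when each tumor was left out in turn. The plot of the other complement genes shows the split by role, with recognition molecules and myeloid receptors mostly to the right of 0 and terminal components and regulators to the left.

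**Figure D4:**
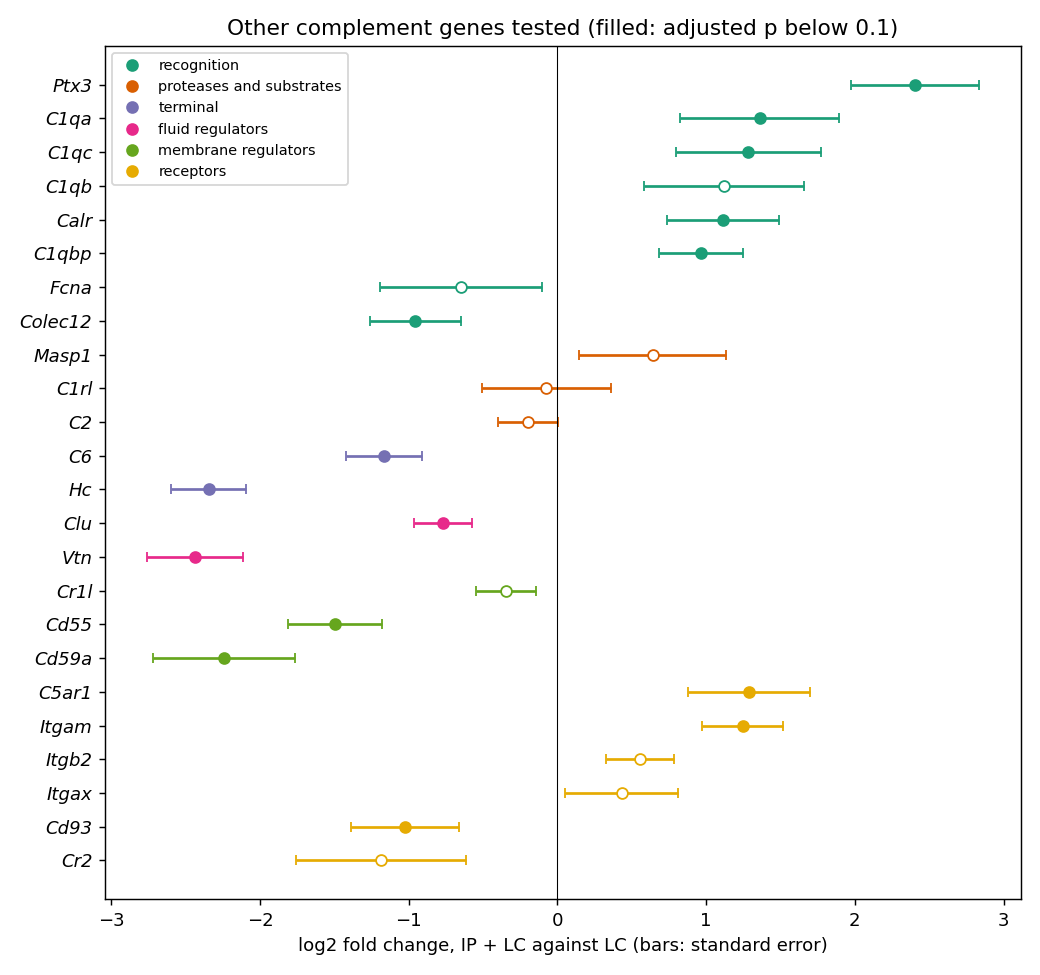
Log2 fold change of IP + LC against LC tumors (x axis, with standard errors) for other complement genes that were tested, coloured by role, with filled points for an adjusted p below 0.1. Ptx3 at 2.41 lies farthest to the right, an estimate that rests on 1 to 3 UMIs in the LC libraries. Vtn at −2.44, Hc at −2.34 and Cd59a at −2.24 lie farthest to the left.

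Markers of cell types that can make complement proteins were listed beside these genes, and their counts are to be read against the 36.4% of all tested genes that were called, 16.8% higher and 19.6% lower (57% without LC replicate 1). Adipocyte genes, including Car3, Fabp4 and Adipoq, were lower for 5 of 5 tested (8 listed), and their summed level was 539 to 1125 CPM in the LC and 99.2 to 166 CPM in the IP + LC tumors. Cfd, which adipocytes make in large amounts, fell by 2.50 on the log2 scale beside Car3 (−2.81), Fabp4 (−2.48) and Adipoq (−3.44). The part of adipocytes in the fall of Cfd was not tested. LC replicate 1 had the lowest sum of the LC tumors for these markers and also the lowest Cfd, 338 CPM. Its sums were also the lowest of the LC tumors for the type 2 alveolar, mesothelial, endothelial, fibroblast, neutrophil and alveolar macrophage lists. They were not the lowest for the airway epithelial and macrophage lists.

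The epithelial, mesothelial and endothelial lists were also lower. Type 2 alveolar markers, led by Sftpc, Sftpa1 and Sftpb, fell for 5 of 6, airway epithelial markers, led by Scgb1a1, Cyp2f2 and Scgb3a2, for 5 of 5, mesothelial markers, led by Krt19, Msln and Upk3b, for 4 of 4 and endothelial markers, led by Cldn5, Pecam1 and Cdh5, for 4 of 4. Summed endothelial levels were 789 to 1443 CPM in the LC and 299 to 365 CPM in the IP + LC tumors. The fibroblast list split, with 2 of 8 higher (Col1a1 and Col1a2), 5 lower (Dcn with a log2 fold change of −2.11 among them) and Col3a1 not called, and its sum overlapped between the groups (1734 to 2191 and 1727 to 1834 CPM). The part of these cells in the lower C4b, Serping1, Hc and Cd55 was not tested. Hepatocyte genes, among them Alb, Fga and Ttr, had at most 3 UMIs in any library, so that RNA of the main source of plasma complement was at or below the limit of detection.

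Myeloid lists moved unevenly beside the rise of C3ar1, C5ar1 and Itgam. Of 7 macrophage genes, 2 were higher and 1 lower, and their sum, most of it Lyz2 (log2 fold change −1.11), was 13829 to 17051 CPM in the LC and 7703 to 9498 CPM in the IP + LC tumors. C1qa, itself on that list, and Adgre1 (0.74, adjusted p = 0.0923) were the higher genes, and Cd68 (0.68), Csf1r (0.59), Mrc1 (−0.02) and Apoe (−0.47) were not called. The median log2 fold change of the list was 0.59, against the direction of its sum, and it was 1.05 without LC replicate 1, when 4 were higher and 1 lower. All 6 alveolar macrophage genes, led by Chil3, Car4 and Ear2, were lower, and 3 of 6 tested neutrophil genes were lower (S100a9, S100a8 and Retnlg), with sums of 808 to 1955 and 157 to 332 CPM. Of the mast cell genes, Kit was the 1 tested and was lower, with Cpa3 and Mcpt4 too low to test. The interferon-gamma response genes rose for 11 of 11, Gbp2 and Cxcl9 among them, with sums of 532 to 673 and 4379 to 5691 CPM. Of 5 tested acute-phase genes 1 was called, Hp, which was lower (−1.35), with Lcn2 at 0.24 and Saa3 at 0.94. Without LC replicate 1, where 57% of all genes were called, 2 were higher (Lcn2 and Il6) and 1 lower. The part of any of these in the complement genes' changes was not tested.

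**Figure D5:**
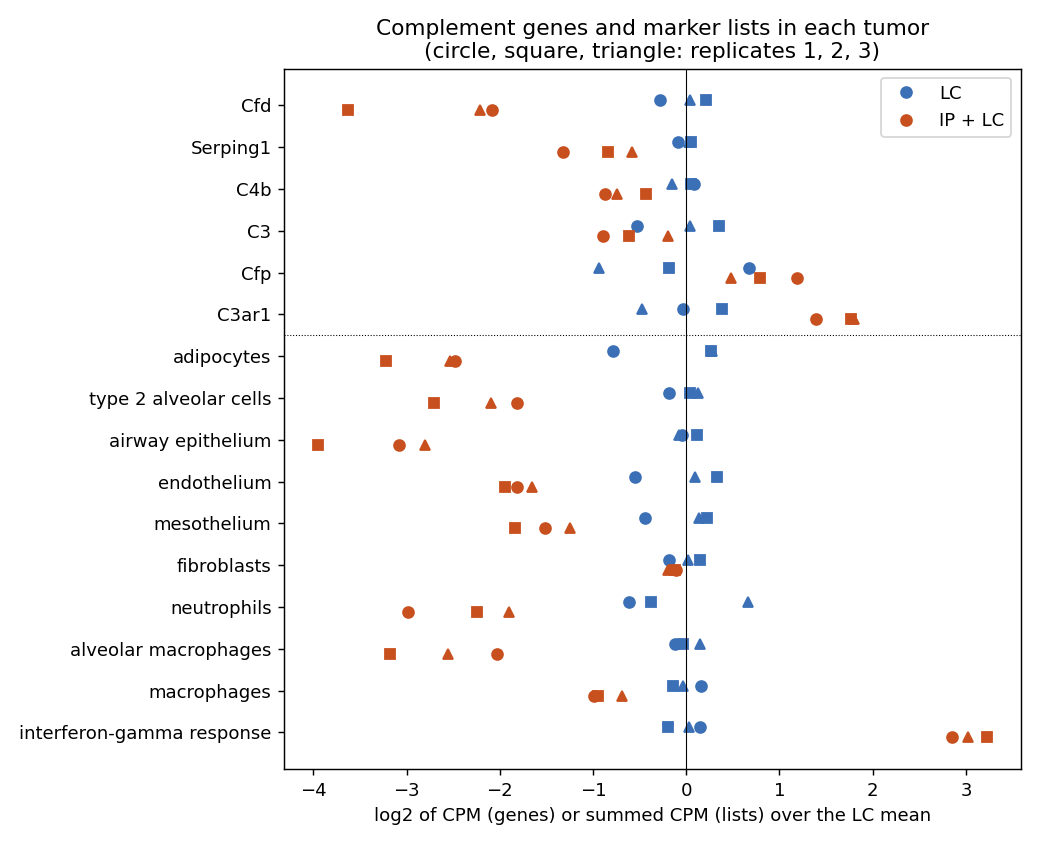
Level of the complement genes and summed level of marker lists in each tumor, as log2 of the CPM over the LC mean (x axis), with a circle, a square and a triangle for replicates 1, 2 and 3. The adipocyte and lung cell lists lie to the left with Cfd in the IP + LC tumors, the fibroblast sums overlap, and the interferon-gamma response lies to the right with C3ar1.

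For each member, the 2 tested genes nearest to it in centred log2(CPM + 4) over the 6 libraries were found, as a description. Cfd was nearest to Gsta3 (root mean square distance 0.060, r = 0.999) and Gstm1 (0.134, r = 0.995), genes of glutathione transferases. C3ar1 was nearest to Brip1 (0.060, r = 0.997), a DNA helicase gene, and Parp9 (0.129, r = 0.990). Serping1 was nearest to H2bc4 and Nudt14, C4b to Tmem41a and Tmem135, C3 to Pbxip1 and Trp53inp2, C1ra to Ms4a4b and Zc3h10, C1s1 to Mapkapk3 and Bloc1s4, and Cfp to 1810055G02Rik and Fam83d. The nearest genes were different for each member, and distances rest on 6 libraries that share the group difference.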

How the data were processed

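Bulk RNA barcoding and sequencing (BRB-seq) of 3 LC and 3 IP + LC tumors adds a sample barcode and a 10-nt UMI to the 3′ end of each transcript. The authors extracted UMIs with UMI-tools 1.1.1, trimmed with Trim Galore 0.6.7, aligned to GRCm38 with HISAT2 2.2.1 and assigned reads with featureCounts 2.0.1. The deposited values are raw counts of distinct UMIs per gene. DESeq2 is named in the submitters' processing notes. The annotation release and use of strand are not given in the sources used here.

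From these counts, edgeR 4.0.16 (R 4.3.3) gave quasi-likelihood tests after filterByExpr (minimum count 10, minimum total 15) and TMM (factors 0.905 to 1.07), with Benjamini-Hochberg adjustment over 11240 genes and a limit of 0.1. Levels in CPM use the TMM-scaled totals of the tested genes. Within-tumor ratios used a pseudocount of 0.5 UMI. Coordinates are GRCm38 from GENCODE M21, which held all 31130 identifiers. Copies were called near-identical from blastn 2.17.0+ matches of at least 81 nt and 95% identity. Promoters are RefSeq GRCm38.p6.

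Members and lists were chosen with earlier results of these data known. Named were all members, the called genes of the complement list, the 3 most abundant genes of each marker list and the 2 genes nearest to each member, and other genes were named after their values were seen. Some items that this rule takes are not reported here, and counts of lists include them. Alternatives were other scalings and filters, DESeq2 1.42.0, limma 3.58.1 (voom), robust edgeR, a replicate block, a limit of 0.05, thinning to 592733 UMIs and each tumor left out. The procedure was tested on simulated data.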

Additional observations from a re-analysis of the deposited data

How the results depend on the processing

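Across the alternatives, 121 of 144 values of single members kept their direction and their side of the limit, 6 lost the limit, 9 gained it and 8 changed sign. Cfd and C3ar1 passed in all fits. The sign changed for C1ra, which was not called (−0.14 with sample quality weights, −0.13 with thinned counts, −0.085 to 0.34 with single tumors left out), and for C1s1, which was not called (0.065 with library size only, 0.022 without a filter, 0.091 with thinned counts, −0.20 to 0.11 with single tumors left out). The number of members that were higher was 2 with library size only, without a filter, with at least 10 UMIs in every library, with limma voom, with quality weights and with the replicate block, and 1 to 2 with single tumors left out. The number that were lower was 1 to 4 with single tumors left out, and was 1 without IP + LC replicate 1. Of the complement list, 11 were higher with quality weights, 4 at a limit of 0.05, and 2 to 11 with single tumors left out. The cause was not tested. Over all genes, 4088 were called, 6394 with quality weights, 2357 with thinned counts and 2265 to 6691 with single tumors left out. With library size only, the median log2 fold change moved from 0.02 to 0.18 and 58.3% of calls were higher, against 46.1%, and C4b missed the limit (adjusted p = 0.116), as it did without a filter (0.209).

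Deviations from the group mean of tumors with the same replicate number correlated at r = 0.026, −0.12 and 0.11. As deviations within a group of 3 tumors are tied to each other, these values cannot decide whether the numbers pair the tumors. With the replicate block, 2 members were higher, Cfp among them (0.96, adjusted p = 0.0411), and 3 lower, and 3410 genes were called. Low counts limit C3ar1, C1ra and the 25 untested genes of the list, and also some called genes of the list. Cd59a had 5 UMIs and C5ar1 had 4 UMIs in LC replicate 1. Vtn had 5 to 8 UMIs in the IP + LC libraries, and Ptx3 had 1 to 3 UMIs in the LC libraries.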
